A study of Mus musculus with 16 samples.

Results

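Skin in which an activated Mek1 allele was added to the loss of Shp2 was compared with skin that had lost Shp2 alone, across all genes detected on the arrays. The comparison rests on the 4 arrays labelled Double and the 4 labelled Shp2lof, 8 of the 16 arrays of the series, and it covered 10232 genes. Double mice carried the Krox20-cre driver, floxed Shp2 and the Mek1fstop/+ allele. Shp2lof mice carried the driver and floxed Shp2 and lacked the Mek1 allele, so that all 8 samples share the Cre driver and the loss of Shp2. The other 8 arrays, 4 of Mek1gof mice with the driver and Mek1fstop/+ and 4 of control mice, were used to place the levels and to test whether the Mek1 effect differed where Shp2 was present. All mice were 15 days old and of a mixed strain, C57/BL6;129Ola, and the tissue was dorsal skin, hybridised to Illumina bead arrays as biotin-labelled cRNA. Krox20, also called Egr2, is a transcription factor of Schwann cells and of part of the hair follicle, so the driver acts in some of the cells of a skin sample and the arrays measure all of them together. Fewer cells of a type and less RNA per cell cannot be told apart in such samples.

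Shp2, the product of Ptpn11, is a tyrosine phosphatase that passes signals from growth factor receptors to Ras, and from there through Raf to the kinases Mek1 and Mek2, which phosphorylate ERK1 and ERK2. Mek1 acts below Shp2 in this chain, so an active Mek1 allele bypasses the step at which Shp2 works. In Schwann cells the pathway takes part in the choice between proliferation and myelination, and in the epidermis it drives proliferation and the response to wounding and irritation.

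The median signal of the arrays lay between 71.33 and 95.88, and 13022 to 13959 probes per array had a detection p below 0.05. Slide 1 carried replicates 1 and 2 of every group and slide 2 carried replicates 3 and 4, while the position on a slide went with the group, so position and group cannot be told apart. Whether the samples came from separate animals is not stated in the labels, and the p-values then reflect only how far these arrays spread. Markers of epidermis, hair shaft, fibroblasts and skeletal muscle were high on every array. The log2 of the summed level of 3 basal keratinocyte markers was 15.09 to 15.33 in Double skin and 15.25 to 15.46 in Shp2lof skin. That of 4 skeletal muscle markers was 13.47 to 14.88 in Double skin and 14.80 to 15.06 in Shp2lof skin, a spread that touches several results given later.

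Transcripts linked to sex also differed between the groups. Xist, transcribed from the inactive X, was at 9.13, 10.04, 5.55 and 6.96 in Double skin, against 5.31, 5.09, 6.12 and 9.12 in Shp2lof skin. The Y-linked gene Eif2s3y was at 4.64, 4.31, 10.63 and 4.39 in Double skin, against 10.40, 10.86, 10.55 and 8.01 in Shp2lof skin. Double 4 thus had a middling Xist level with Eif2s3y low. Shp2lof 4 had Xist high with Eif2s3y between the low and the high arrays, as did Mek1gof 2 (Xist 8.82, Eif2s3y 6.77). Kdm5d, also Y-linked, was at 4.99 on Shp2lof 4 and 4.62 on Mek1gof 2, against 7.29, 7.13 and 6.85 on Shp2lof 1, 2 and 3. The labels give no sex, and the part of sex in the results below was examined only through the alternatives given beside them.

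The probes of the engineered genes did not separate the groups. Ptpn11 was at 12.85, 12.91, 13.15 and 12.86 in Double skin, against 12.84, 12.74, 12.81 and 12.90 in Shp2lof skin, and the groups overlapped (0.12, SE 0.116, adjusted p = 0.746). Map2k1, the gene of Mek1, was at 6.26, 6.44, 6.88 and 6.81 in Double skin, against 6.35, 6.62, 7.01 and 6.82 in Shp2lof skin (-0.10, SE 0.245, adjusted p = 0.915). Egr2, the gene that gives the driver its promoter, was at 9.83, 9.61, 9.38 and 9.18 in Double skin, against 9.55, 9.89, 9.72 and 9.80 in Shp2lof skin (-0.24, SE 0.199, adjusted p = 0.696). The sources used here do not place these probes relative to the deleted or inserted parts, so they check neither allele.

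In Double skin, several genes of epidermal stress, of macrophages and of the interferon response were lower than in Shp2lof skin. Higher were 2 of 12 Schwann cell and myelin genes, 3 of 11 sebaceous gland genes and 4 of 16 fatty acid synthesis genes. Elovl3 counts in both of the last lists. Fa2h, 1 of the 2 myelin genes, is also the only gene that rose among 18 ceramide and sphingolipid genes. These and the other lists were chosen with earlier results of these data known. Their counts beside the share of all genes, here and below, are descriptions and no test. Of the 10232 genes tested, 99 passed a Benjamini-Hochberg adjusted p of 0.05 in the limma fit, 0.968% of all, 44 of them higher (0.43%) and 55 lower (0.538%) in Double skin. At an unadjusted p below 0.05 there were 1306 (12.8%). The median difference over all genes was 0.00604 on the log2 scale. Of the 99 genes, 22 rose and 41 fell by more than 2-fold, and for 95 of them no Double array lay inside the range of the Shp2lof arrays, which held for 669 of all genes tested (6.54%). The 15 largest increases and 15 largest decreases given below were taken from these 95, so their lack of overlap comes from the choice. All 99 kept their direction in fits that adjusted for Eif2s3y, for Xist or for the level of the skeletal muscle list. They also kept it without Double 4, Shp2lof 4 and Mek1gof 2, which could not reverse the 95 without overlap. The slide as a block could not change any difference, since each slide held 2 arrays of every group. The number past the test was 82 with Eif2s3y, 124 with Xist, 104 without those 3 arrays and 39 adjusted for skeletal muscle, of which 60, 89, 61 and 31 were among the 99. Without Shp2lof 3 alone 56 passed. On unnormalized signals, where the median over all genes was -0.147, the fit called 178 genes, 14 higher and 164 lower. With the slide as a block 158 passed, the 99 among them. Where a probe was above background on few arrays of the lower group, its fold is partly one over background. This touches Pyy, Hbb-b2, Mmp12, Trappc12 and Serpinb3a, detected on 1 of 4 Double arrays, Sprr2d, Defb4, Elf3 and AA467197, detected on 2 of 4, and Pmp2 and Sp7, detected on 1 of 4 Shp2lof arrays.

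The largest decrease was that of Pyy, on chromosome 11, which encodes the peptide hormone PYY, known from the gut and the pancreas. Pyy was at 4.84, 4.996, 4.44 and 4.65 in Double skin, against 8.79, 9.28, 8.77 and 9.29 in Shp2lof skin. Every Double array lay below every Shp2lof array, and the probe was above background on 1 of 4 Double arrays but 4 of 4 Shp2lof arrays. It fell (log2 difference -4.30, SE 0.235, 19.7-fold lower, adjusted p = 6.13e-09), -4.12 on slide 1 and -4.48 on slide 2. It averaged 4.75 ± 0.209 in Mek1gof skin and 5.90 ± 0.604 in control skin (SD, n = 4 each).

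Genes that keratinocytes turn on in wounded or irritated epidermis were prominent among the decreases. In a list of 21 such genes tested, 6 fell and none rose, against 0.538% of all genes lower, and the median difference was -0.382. The 6 were Sprr2d, Sprr2e, Sprr2g, Stfa1, Defb4 and Serpinb3a. Sprr2d, a small proline-rich protein of the cornified envelope, was at 6.44, 5.51, 4.57 and 4.69 in Double skin, against 7.74, 8.58, 8.36 and 7.59 in Shp2lof skin. It was lower on every Double array, and within Double skin the arrays of slide 1 were above those of slide 2 (log2 difference -2.77, SE 0.398, 6.8-fold lower, adjusted p = 0.00114). Stfa1, a stefin A that inhibits cysteine proteases, was at 11.30, 10.83, 10.12 and 9.20 in Double skin, against 12.68, 13.33, 13.08 and 12.72 in Shp2lof skin, again without overlap and with the Double arrays of slide 1 above those of slide 2 (log2 difference -2.59, SE 0.462, 6.03-fold lower, adjusted p = 0.00727). Its adjusted p was 0.0537 with Eif2s3y as a covariate. Defb4, an antimicrobial beta-defensin, was at 6.40, 5.70, 4.67 and 4.83 in Double skin, against 6.88, 7.49, 6.87 and 6.90 in Shp2lof skin (log2 difference -1.64, SE 0.289, 3.11-fold lower, adjusted p = 0.00658). Its difference was -1.13 on slide 1 and -2.14 on slide 2, with an adjusted p of 0.0764 on slide 1 alone.

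Serpinb3a, an inhibitor of proteases of the serpin family, was at 4.99, 4.83, 4.53 and 4.43 in Double skin, against 5.95, 6.60, 6.29 and 5.79 in Shp2lof skin, with its probe above background on 1 of 4 Double arrays (log2 difference -1.46, SE 0.176, 2.75-fold lower, adjusted p = 0.0002). Sprr2g was at 6.46, 6.20, 6.66 and 6.08 in Double skin, against 7.23, 7.97, 6.96 and 7.01 in Shp2lof skin (log2 difference -0.95, SE 0.212, 1.93-fold lower, adjusted p = 0.0381). The Sprr2e probe was above background on none of the Double arrays and on 4 of 4 Shp2lof arrays, so Sprr2e was at least 1.23-fold lower in Double skin (adjusted p = 0.00586). Members of the Sprr2, stefin A and Serpinb3 families are near-identical, and their probes may bind one another's transcripts. The other 15 genes of the list did not pass. Among them Krt6b and Krt16, keratins of activated keratinocytes, had differences of -0.85 (adjusted p = 0.256) and -0.87 (adjusted p = 0.198), and S100a8 and S100a9, subunits of calprotectin, had 0.34 (adjusted p = 0.461) and 0.37 (adjusted p = 0.681). The list counted 5 decreases without Double 4, Shp2lof 4 and Mek1gof 2, 4 with Eif2s3y as a covariate and 4 with the skeletal muscle level.

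Epgn encodes epigen, a ligand of the EGF receptor, which signals through Shp2 and Ras. It was at 8.84, 8.84, 8.09 and 8.27 in Double skin, against 9.81, 11.07, 10.17 and 10.38 in Shp2lof skin, so that all 4 Double arrays lay below the Shp2lof arrays (log2 difference -1.85, SE 0.278, 3.6-fold lower, adjusted p = 0.00172). Of 9 EGF receptor ligands, receptors and regulators tested it was the only one to pass, and the other 8 lay below 0 without passing, Hbegf at -0.40 (adjusted p = 0.391) and Tgfa at -0.08 (adjusted p = 0.917). Elf3, an epithelial ETS transcription factor, was at 4.90, 5.06, 5.31 and 4.71 in Double skin, against 6.46, 6.88, 6.04 and 7.28 in Shp2lof skin (log2 difference -1.67, SE 0.24, 3.18-fold lower, adjusted p = 0.00114). A second Elf3 probe gave -0.37 (adjusted p = 0.247). Slc2a1, the glucose transporter GLUT1, was at 9.09, 8.89, 8.84 and 8.78 in Double skin, against 10, 10.74, 10.02 and 10.20 in Shp2lof skin, without overlap (log2 difference -1.34, SE 0.165, 2.53-fold lower, adjusted p = 0.00025). Neither Elf3 nor Slc2a1 overlapped between the groups. Slc2a1 and Egln3, a prolyl hydroxylase of the hypoxia response, were the 2 decreases among 19 genes of glycolysis and hypoxia, against 0.538% of all genes lower. Egln3 had -0.92 (SE 0.214, adjusted p = 0.0491), with a second probe at -0.60 (adjusted p = 0.245), and lost the call under 16 of 26 alternatives. All 19 genes had a difference below 0, where 51.4% of all genes lay above 0, and their median was -0.495. Muscle forms of glycolytic enzymes are among them, such as Eno3 (-1.02, adjusted p = 0.122) and Pgam2 (-0.97, adjusted p = 0.227). In a fit adjusted for skeletal muscle the median of the list was -0.279, and Slc2a1 passed while Egln3 did not (adjusted p = 0.00338 and 0.247).

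**Figure D1:**
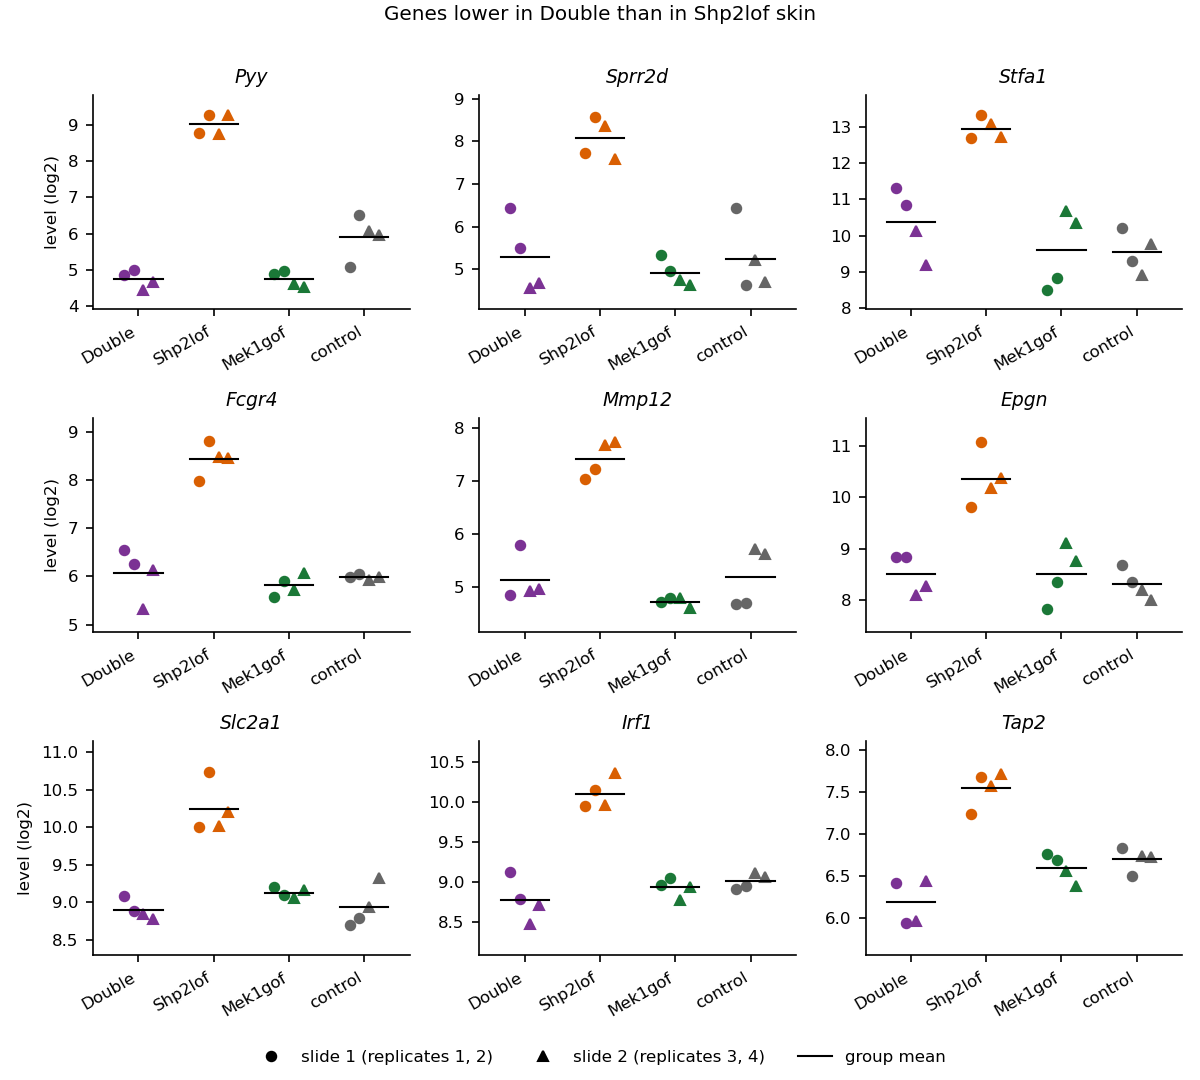
Normalized log2 level (y axis) on each of the 16 arrays for 9 genes lower in Double than in Shp2lof skin, with groups on the x axis, circles for slide 1, triangles for slide 2 and a bar at the group mean; Tap2 was chosen for the plot after its values were seen. In each panel all 4 Double arrays lie below all 4 Shp2lof arrays, which for Pyy, Sprr2d, Stfa1, Fcgr4, Mmp12 and Epgn was a condition of their choice. For Pyy and Tap2 the Double arrays also lie below all 4 control arrays.

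Among 18 genes of macrophages and dendritic cells, 5 fell and none rose, against 0.538% of all genes lower, with a median of -0.377. Fcgr4, an activating Fc receptor for IgG on myeloid cells, was at 6.56, 6.26, 5.31 and 6.13 in Double skin, against 7.995, 8.82, 8.49 and 8.47 in Shp2lof skin. No Double array reached the lowest Shp2lof array (log2 difference -2.38, SE 0.216, 5.2-fold lower, adjusted p = 7.95e-06), and the difference was -1.999 on slide 1 and -2.76 on slide 2. Mmp12, the macrophage metalloelastase, was at 4.84, 5.79, 4.92 and 4.96 in Double skin, against 7.03, 7.21, 7.67 and 7.72 in Shp2lof skin, and its probe was above background on 1 of 4 Double arrays against 4 of 4 Shp2lof arrays (log2 difference -2.28, SE 0.251, 4.86-fold lower, adjusted p = 7.25e-05). The C-type lectins Clec7a, which is dectin-1, and Clec4n, which is dectin-2, fell by 1.72 and 1.12 log2 units (adjusted p = 0.00948 and 0.0215). A second Clec7a probe gave 0.10 (adjusted p = 0.828). Chil1, a chitinase-like protein of activated macrophages, was at 10.10, 9.58, 8.71 and 8.78 in Double skin, against 10.02, 10.67, 10.51 and 10.28 in Shp2lof skin, where Double 1 lay inside the Shp2lof range (log2 difference -1.08, SE 0.248, 2.11-fold lower, adjusted p = 0.0432). General macrophage genes did not pass, C1qa at -0.42 (adjusted p = 0.552), Lyz2 at 0.13 (adjusted p = 0.928) and Adgre1, which encodes F4/80, at -0.37 (adjusted p = 0.616). The summed level of the macrophage markers C1qa and Lyz2 was 9.20 to 10.14 in Double skin and 8.73 to 10.37 in Shp2lof skin on the log2 scale. On slide 1 alone the list had 1 increase and 2 decreases with a median of 0.0612, and on slide 2 alone 8 decreases with a median of -0.886. Without the 3 arrays of atypical sex-linked levels 2 genes of the list fell.

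Interferons induce genes of antigen processing, guanylate-binding proteins and p47 GTPases, through STAT factors and through Irf1. Of 21 such genes tested, 6 fell and none rose, against 0.538% of all genes lower, and the list's median was -0.408. Irf1 was at 9.13, 8.79, 8.48 and 8.71 in Double skin, against 9.95, 10.16, 9.96 and 10.37 in Shp2lof skin, with every Double array below the Shp2lof arrays (log2 difference -1.33, SE 0.141, 2.52-fold lower, adjusted p = 5.19e-05). The 3 other Irf1 probes gave -0.65 (adjusted p = 0.111), -0.28 (adjusted p = 0.613) and 0.08 (adjusted p = 0.925), and the mean of all 4 gave -0.55 (adjusted p = 0.08). Igtp, a p47 GTPase also known as Irgm3, was at 7.57, 7.08, 6.41 and 6.14 in Double skin, against 8.32, 7.83, 7.89 and 9.11 in Shp2lof skin. The Double arrays of slide 1 lay closer to the Shp2lof arrays than those of slide 2 did, and the difference was -0.75 on slide 1 and -2.23 on slide 2 (log2 difference -1.49, SE 0.276, 2.8-fold lower, adjusted p = 0.00975). Psmb9, a subunit of the immunoproteasome encoded on chromosome 17, was at 7.07, 6.38, 6.33 and 6.83 in Double skin, against 7.62, 7.62, 7.71 and 8.02 in Shp2lof skin (log2 difference -1.09, SE 0.165, 2.13-fold lower, adjusted p = 0.00172). Oasl2, an oligoadenylate synthetase-like protein, was at 6.90, 6.75, 6.53 and 7.37 in Double skin, against 7.97, 7.91, 8.43 and 8.09 in Shp2lof skin (log2 difference -1.21, SE 0.189, 2.32-fold lower, adjusted p = 0.0024). For Psmb9 and Oasl2 too, no Double array reached the Shp2lof range. Gbp2, a guanylate-binding protein, and Cxcl9, a chemokine induced by interferon gamma, completed the 6 (-1.34, SE 0.266, adjusted p = 0.0167 for Gbp2 and -1.45, SE 0.297, adjusted p = 0.0215 for Cxcl9).

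Further genes of this kind, outside the list and named after their values were seen, also fell. Tap2, the peptide transporter of antigen presentation on chromosome 17, was at 6.42, 5.94, 5.96 and 6.44 in Double skin, against 7.24, 7.68, 7.57 and 7.72 in Shp2lof skin (log2 difference -1.36, SE 0.153, 2.57-fold lower, adjusted p = 8.44e-05). Ubd, the ubiquitin-like protein FAT10, fell by 1.36 log2 units (adjusted p = 0.00307), Irgm2, a p47 GTPase, by 1.12 (adjusted p = 0.0111), Oas2 by 0.82 (adjusted p = 0.0377) and the class I gene H2-Q7 by 0.90 (adjusted p = 0.0445). The Bst2 probe, for the antiviral membrane protein tetherin, was above background on none of the Double arrays and on 4 of 4 Shp2lof arrays, so Bst2 was at least 1.59-fold lower (adjusted p = 0.0292). Adjusted for skeletal muscle, Tap2 passed (adjusted p = 0.00615). Ubd, Irgm2, Oas2, H2-Q7 and Bst2 did not (adjusted p = 0.0872, 0.154, 0.195, 0.23 and 0.188). Without Double 4, Shp2lof 4 and Mek1gof 2, Tap2 and Ubd passed (adjusted p = 0.00149 and 0.0307). Irgm2, Oas2, H2-Q7 and Bst2 did not (adjusted p = 0.0705, 0.0654, 0.0622 and 0.0951). Of the 21 genes of the list 17 lay below 0. Among the 15 that did not pass, Tap1 had -0.90 (adjusted p = 0.0563), Usp18 -0.62 (adjusted p = 0.0972), Irf9 -0.60 (adjusted p = 0.164) and Isg15 -0.31 (adjusted p = 0.598), while Ifit3 had 0.03 (adjusted p = 0.976), Rsad2 0.02 (adjusted p = 0.986) and Irgm1, the highest, 0.46 (adjusted p = 0.301). The 8 class II MHC genes tested all lay below 0, with a median of -0.543, and none passed, H2-Aa at -0.91 (adjusted p = 0.0547). On slide 1 alone 3 genes of the interferon list fell, with a median of -0.215, and on slide 2 alone 11, with a median of -0.781. Without Double 4, Shp2lof 4 and Mek1gof 2 there were 3 decreases, and in a fit adjusted for skeletal muscle also 3.

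Promoter stretches are shown of 6 of the 7 genes that fell and whose windows hold motifs of interferon-responsive promoters. The seventh, Foxp3, holds a GAS match in its second window and is not printed. The search covered the 250 bases before the start, on both strands, for GAAA followed after any 2 bases by a second GAAA, the core of the interferon-stimulated response element (ISRE), and for TTCNNNGAA, the gamma-activated site (GAS), and all matches are in capitals. Sequences are from RefSeq on GRCm38.p6, written 5′ to 3′ along the gene's strand. The matches of Igtp and Irgm2 share the same ISRE letters, and in Bst2 matches overlap.
Irf1, chr11:53769894-53769962, strand +: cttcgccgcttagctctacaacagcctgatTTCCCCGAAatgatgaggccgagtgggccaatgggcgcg
Igtp, chr11:58199481-58199555, strand +: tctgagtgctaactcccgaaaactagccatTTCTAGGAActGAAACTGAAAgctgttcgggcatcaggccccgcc
Irgm2, chr11:58214872-58214952, strand +: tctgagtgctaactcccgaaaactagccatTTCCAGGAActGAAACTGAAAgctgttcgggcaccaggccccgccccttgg
Gbp2, chr3:142620574-142620643, strand +: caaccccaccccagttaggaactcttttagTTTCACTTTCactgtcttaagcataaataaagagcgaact
Bst2, chr8:71537557-71537638, strand -: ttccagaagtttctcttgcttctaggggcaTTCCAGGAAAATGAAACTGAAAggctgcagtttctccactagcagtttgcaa
Fcgr4, chr1:171018823-171018892, strand +: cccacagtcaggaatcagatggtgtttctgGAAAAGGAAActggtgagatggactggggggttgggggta

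Of the 55 genes that fell, 46 had a promoter entry, and 5 of them (10.9%) held an ISRE match, 5 (10.9%) a GAS match and 7 (15.2%) either. Of the 44 genes that rose, 28 had an entry and none held either motif. Among the 8235 genes tested that had an entry, 3.27% held an ISRE match, 7.48% a GAS match and 10.3% either, and the motifs were in 2.98% and 7.02% of all 32851 windows of this length. The GAS match of Irf1 lay 82 to 90 bases before the start, and the ISRE match of Igtp 25 to 34 bases before it. These are matches of letters and no measure of binding. No match was found in the windows of Oasl2, Cxcl9, Psmb9 and Ubd.

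Other decreases lay outside these groups. Hbb-b2, a beta-globin gene on chromosome 7, was at 4.87, 5.11, 4.91 and 4.54 in Double skin, against 8.71, 8.45, 9.45 and 8.50 in Shp2lof skin, with its probe above background on 1 of 4 Double arrays and 4 of 4 Shp2lof arrays (log2 difference -3.92, SE 0.522, 15.1-fold lower, adjusted p = 0.000613). Other erythroid genes did not pass, among them Hba-a1 at 0.40 (adjusted p = 0.435) and Alas2 at -0.14 (adjusted p = 0.88). Hbb-b2 was also high in control skin and divided in Mek1gof skin, at 6.20, 8.44, 5.68 and 8.84 in Mek1gof skin and 8.29, 9.72, 9.23 and 9.14 in control skin. The mice were of a mixed strain, and whether the Hbb-b2 level followed strain background was not tested. Trappc12, a subunit of a vesicle tethering complex, was at 4.54, 5.07, 4.90 and 4.57 in Double skin, against 6.52, 7.02, 6.90 and 7.07 in Shp2lof skin (log2 difference -2.11, SE 0.428, 4.31-fold lower, adjusted p = 0.0207). It too was high on some and low on other arrays of Mek1gof skin (4.72, 4.61, 4.68 and 6.38) and of control skin (4.61, 7.003, 4.85 and 5.05), and it no longer passed without Shp2lof 2, Shp2lof 3 or Shp2lof 4 (adjusted p = 0.0659, 0.0649 and 0.0509). AA467197, also called Nmes1, was at 6.39, 5.59, 4.93 and 4.77 in Double skin, against 7.44, 7.74, 7.06 and 7.38 in Shp2lof skin (log2 difference -1.98, SE 0.321, 3.96-fold lower, adjusted p = 0.00308). Igfbp2, which binds insulin-like growth factors, was at 7.88, 8.34, 7.73 and 7.61 in Double skin, against 9.47, 9.60, 9.11 and 9.72 in Shp2lof skin (log2 difference -1.58, SE 0.292, 3-fold lower, adjusted p = 0.00948), while its second probe gave -0.01 (adjusted p = 0.993) and the mean of both -0.80 (adjusted p = 0.133). No Double array reached the Shp2lof range for AA467197 or Igfbp2. Foxp3, the transcription factor of regulatory T cells, was at 6.04, 5.58, 5.17 and 5.27 in Double skin, against 6.37, 6.72, 6.75 and 6.46 in Shp2lof skin (log2 difference -1.06, SE 0.158, 2.08-fold lower, adjusted p = 0.00164), while its second probe gave -0.32 (adjusted p = 0.409). The T cell receptor genes Cd3e and Cd3g had -0.36 (adjusted p = 0.532) and -0.01 (adjusted p = 0.993). Ccl8, a monocyte chemokine, was the single one of 15 chemokine and neutrophil genes to pass (-1.35, SE 0.287, adjusted p = 0.0281).

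The largest increase was that of Pmp2, the myelin P2 protein, a fatty acid carrier of peripheral myelin, on chromosome 3. Pmp2 was at 8.77, 8.10, 8.24 and 8.56 in Double skin, against 4.48, 4.46, 4.59 and 5.02 in Shp2lof skin. Every Double array lay far above every Shp2lof array, and the probe was above background on 4 of 4 Double arrays and 1 of 4 Shp2lof arrays (log2 difference 3.78, SE 0.284, 13.7-fold higher, adjusted p = 5.79e-07). It averaged 8.69 ± 0.771 in Mek1gof skin and 5.22 ± 0.307 in control skin (SD, n = 4 each). Fa2h, the enzyme that hydroxylates fatty acids of myelin galactolipids and of skin sphingolipids, was at 12.75, 12.47, 11.98 and 11.41 in Double skin, against 10.02, 10.23, 9.88 and 9.76 in Shp2lof skin, without overlap (log2 difference 2.18, SE 0.221, 4.54-fold higher, adjusted p = 3.12e-05). Of 12 Schwann cell and myelin genes tested these were the 2 that rose, against 0.43% of all genes higher, and 11 of the 12 lay above 0, with a median of 0.572. Mbp, the myelin basic protein, had a difference of 1.15 (adjusted p = 0.0663), Ugt8a, which makes galactocerebroside, 0.90 (adjusted p = 0.0711) and Pmp22 0.58 (adjusted p = 0.164). The mean level of the list was 7.72 to 8.02 in Double skin and 6.89 to 7.09 in Shp2lof skin, with Mek1gof skin at 7.77 to 8.48 and control skin at 7.36 to 7.70. Gap43, a growth-associated protein of axons and of Schwann cells outside myelin, named after its values were seen, was at 6.36, 6.18, 6.95 and 7.26 in Double skin, against 5.41, 5.40, 5.70 and 5.96 in Shp2lof skin and also rose (log2 difference 1.07, SE 0.232, 2.1-fold higher, adjusted p = 0.0312).

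Of 16 genes of fatty acid synthesis 4 rose and none fell, against 0.43% of all genes higher, and the median was 0.318. Elovl3, an elongase of sebaceous and hair lipids, was at 9.19, 9.39, 8.74 and 8.59 in Double skin, against 7.58, 7.59, 7.13 and 7.41 in Shp2lof skin (log2 difference 1.55, SE 0.193, 2.93-fold higher, adjusted p = 0.000253), 1.70 on slide 1 and 1.40 on slide 2. Elovl6, which lengthens palmitate, was at 12.60, 12.54, 11.66 and 10.69 in Double skin, against 10.32, 9.94, 9.95 and 9.46 in Shp2lof skin, with the Double arrays of slide 1 above those of slide 2 (log2 difference 1.96, SE 0.301, 3.88-fold higher, adjusted p = 0.00205). Acly, which makes cytosolic acetyl-CoA from citrate, was at 12.91, 12.92, 12.82 and 12.63 in Double skin, against 12.24, 12.39, 11.99 and 12.39 in Shp2lof skin, a small gap without overlap (log2 difference 0.57, SE 0.12, 1.48-fold higher, adjusted p = 0.0281). Acss2, which makes it from acetate, was at 10.03, 10.32, 9.99 and 9.80 in Double skin, against 9.26, 9.13, 9.04 and 9.63 in Shp2lof skin (log2 difference 0.77, SE 0.149, 1.71-fold higher, adjusted p = 0.0133). Pank1, the pantothenate kinase at the start of coenzyme A synthesis, was at 11.44, 11.79, 11.09 and 10.91 in Double skin, against 10.19, 10.26, 9.89 and 10.07 in Shp2lof skin (log2 difference 1.21, SE 0.165, 2.31-fold higher, adjusted p = 0.000769), while its second probe gave 0.27 (adjusted p = 0.626). Scd1 and Srebf1 did not pass, with 0.51 (adjusted p = 0.266) and -0.09 (adjusted p = 0.886). Of 17 cholesterol synthesis genes, Mvd alone rose (0.69, SE 0.142, adjusted p = 0.0215), and Hmgcs1 had 0.43 (adjusted p = 0.164). The groups did not overlap for any of these genes that rose. Acly lost the call without Shp2lof 1, Shp2lof 3, Double 1, Double 2 or Double 3, with adjusted p between 0.0564 and 0.105, and in a fit adjusted for skeletal muscle only Elovl3 of the 4 passed.

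In the sebaceous gland list 3 of 11 genes rose and none fell, against 0.43% of all genes higher, with a median of 0.421. The list counted 1 increase adjusted for Eif2s3y, 1 adjusted for skeletal muscle and 1 on slide 2 alone, against 5 on slide 1 alone. Besides Elovl3 these were Awat2, an acyltransferase that makes wax esters, and Cyp2g1, a cytochrome P450. Awat2 was at 8.20, 8.48, 6.54 and 5.94 in Double skin, against 5.36, 5.77, 5.13 and 5.67 in Shp2lof skin, where the Double arrays of slide 1 stood well above those of slide 2 (log2 difference 1.81, SE 0.414, 3.5-fold higher, adjusted p = 0.0432). Its difference was 2.77 on slide 1 and 0.84 on slide 2, and the call was lost without any 1 Shp2lof array and without Double 1 or Double 2, with adjusted p between 0.0615 and 0.127. Cyp2g1 was at 8.93, 9.45, 7.75 and 7.41 in Double skin, against 6.67, 6.89, 6.43 and 7.18 in Shp2lof skin, with the same division by slide (log2 difference 1.59, SE 0.357, 3.02-fold higher, adjusted p = 0.0381), and a second probe also rose, by 1.43 (adjusted p = 0.0412). Among 17 esterases and oxidases 3 rose, against 0.43% of all genes higher. None of the 17 passed in the fit adjusted for skeletal muscle, with adjusted p of 0.0531 for Aadacl4, 0.091 for Aldh3a1 and 0.531 for Acox2. Aadacl4, of the arylacetamide deacetylase family, was at 9.62, 9.10, 7.78 and 7.39 in Double skin, against 6.001, 5.72, 5.96 and 6.28 in Shp2lof skin (log2 difference 2.48, SE 0.356, 5.58-fold higher, adjusted p = 0.00114), 3.50 on slide 1 and 1.46 on slide 2. Aldh3a1, an aldehyde dehydrogenase, was at 10.52, 9.78, 9.18 and 8.88 in Double skin, against 8.23, 8.18, 7.92 and 7.54 in Shp2lof skin (log2 difference 1.62, SE 0.261, 3.08-fold higher, adjusted p = 0.00294). Neither Aadacl4 nor Aldh3a1 overlapped between the groups. Acox2, a peroxisomal oxidase, was at 7.62, 7.86, 6.93 and 6.60 in Double skin, against 5.995, 6.60, 6.35 and 5.97 in Shp2lof skin, where Double 4 lay level with the highest Shp2lof array (log2 difference 1.02, SE 0.23, 2.04-fold higher, adjusted p = 0.0381).

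**Figure D2:**
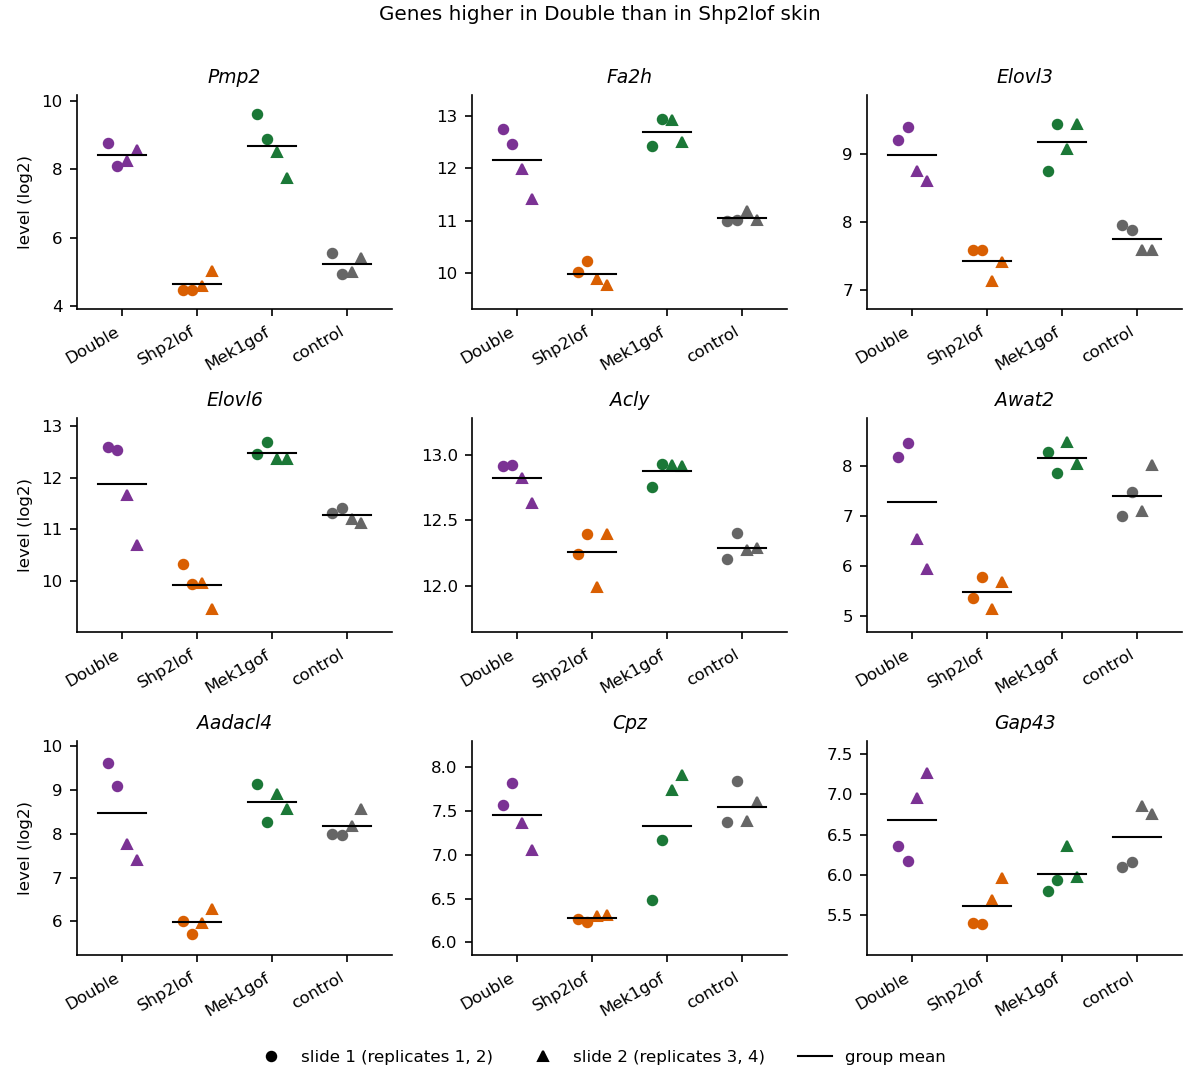
Normalized log2 level (y axis) on each of the 16 arrays for 9 genes higher in Double than in Shp2lof skin, with groups on the x axis, circles for slide 1, triangles for slide 2 and a bar at the group mean; Gap43 was chosen for the plot after its values were seen. Pmp2 lies between 8.10 and 8.77 on the Double arrays and between 4.46 and 5.02 on the Shp2lof arrays, and for Awat2 and Aadacl4 the Double arrays of slide 1 stand above those of slide 2.

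Il13ra2, a decoy receptor for interleukin 13, was at 7.17, 8.53, 6.82 and 6.42 in Double skin, against 5.49, 6.05, 5.08 and 5.50 in Shp2lof skin (log2 difference 1.70, SE 0.332, 3.26-fold higher, adjusted p = 0.0144). Clstn3, the membrane protein calsyntenin 3, was at 7.998, 7.83, 6.87 and 6.71 in Double skin, against 5.30, 6.15, 5.18 and 5.47 in Shp2lof skin (log2 difference 1.82, SE 0.263, 3.54-fold higher, adjusted p = 0.00114). Panx3, a pannexin channel of skin and cartilage, was at 10.17, 10.62, 9.82 and 9.32 in Double skin, against 8.64, 8.41, 8.12 and 8.31 in Shp2lof skin (log2 difference 1.61, SE 0.255, 3.06-fold higher, adjusted p = 0.00251). For all 3 of these the Double arrays lay above the Shp2lof range. Tmem45b, a membrane protein, rose by 1.43 (adjusted p = 0.00539), and Defb6, a beta-defensin, by 1.23 (adjusted p = 0.0436). Defb6 lost the call without any 1 Shp2lof array and without Double 1 or Double 2, with adjusted p up to 0.125, and its difference was 1.85 on slide 1 and 0.62 on slide 2. Cpz, a carboxypeptidase that binds Wnt proteins, was at 7.56, 7.82, 7.36 and 7.06 in Double skin, against 6.26, 6.24, 6.30 and 6.31 in Shp2lof skin, where the Shp2lof arrays lay close together and below every Double array (log2 difference 1.17, SE 0.238, 2.25-fold higher, adjusted p = 0.0207). Sp5, a transcription factor induced by Wnt signals, and Sp7, the osteoblast factor osterix, rose near the background. The Sp5 probe was above it on 4 of 4 Double arrays and on none of the Shp2lof arrays, so Sp5 was at least 1.51-fold higher (adjusted p = 0.0144), and the Sp7 probe was above it on 4 of 4 Double arrays and 1 of 4 Shp2lof arrays (0.88, SE 0.17, adjusted p = 0.0133). Eln, which encodes elastin, was the single one of 23 fibroblast and matrix genes to pass and was at 11.48, 11.26, 10.93 and 10.92 in Double skin, against 10.62, 10.55, 10.48 and 10.26 in Shp2lof skin (log2 difference 0.67, SE 0.138, 1.59-fold higher, adjusted p = 0.022). The median of that list was 0.419, and Col1a1 had 0.77 (adjusted p = 0.0543). The call was lost under 10 of 26 alternatives for Eln, 7 of 26 for Cpz and 5 of 26 for Il13ra2. For Sp5 and Sp7 it was lost under 8 and 6 of 25. None of the genes given here as higher passed in the fit adjusted for skeletal muscle, with adjusted p of 0.346 for Il13ra2, 0.438 for Cpz and 0.301 for Eln.

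No call was made in 22 of the 42 lists. Skeletal muscle had the lowest median of all, -0.878 over 25 genes, of which 24 lay below 0 and 22 were lower at an unadjusted p below 0.05, and none passed the adjusted test. Its mean level was 9.46 to 10.53 in Double skin and 10.59 to 10.77 in Shp2lof skin, and the median was -1.37 on slide 1 and -0.393 on slide 2. The panniculus muscle lies under dorsal skin, and how much of it each sample held was not given. Melanocyte genes had the highest median, 0.855 over 9 genes with none past the test, and it was -0.07 on slide 1 and 1.75 on slide 2. The median was 0.00773 for 19 hair shaft genes, -0.0244 for 9 genes of the inner root sheath and 0.112 for 27 cell cycle genes, and no gene of these lists passed. The pathway itself also gave no call. Among 10 ERK feedback genes and Etv targets Etv4 had 0.59 (adjusted p = 0.177) and Dusp6, a phosphatase of ERK, -0.23 (adjusted p = 0.67), and the immediate early gene Fos, of 13, had -0.26 (adjusted p = 0.876). The X-linked Spry3, a Sprouty antagonist of receptor signals outside that list, was above background on 2 of 4 Double arrays and none of the Shp2lof arrays and was at least 1.14-fold higher (adjusted p = 0.0381).

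**Figure D3:**
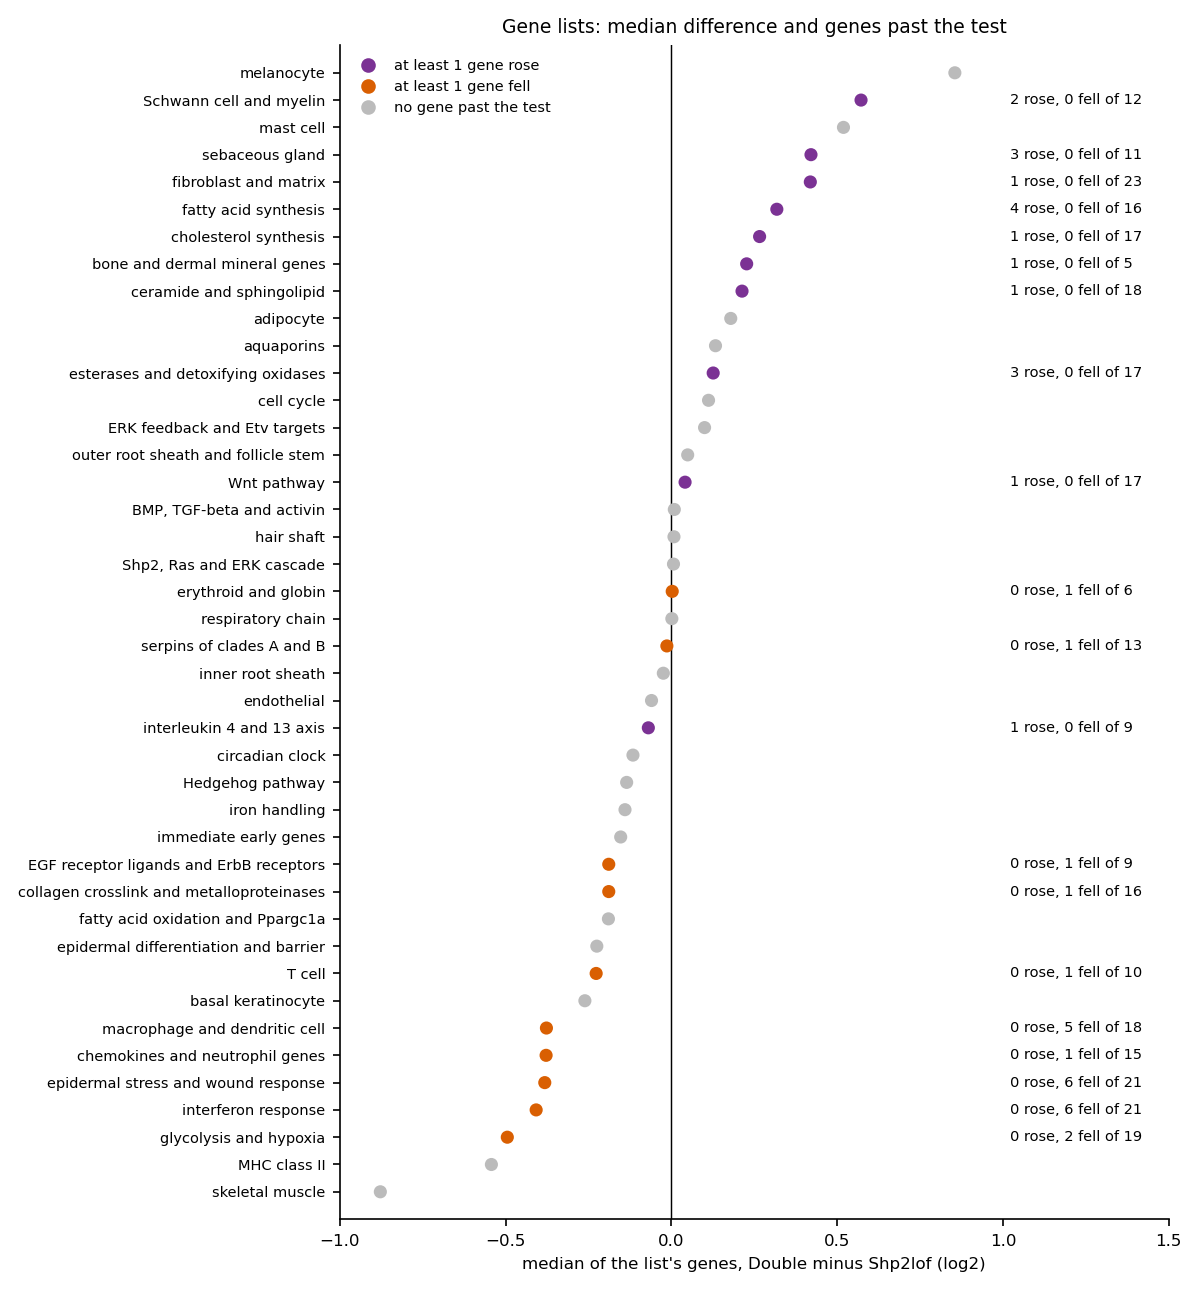
Median log2 difference, Double minus Shp2lof (x axis), of the tested genes of each of 42 gene lists (y axis, sorted by the median), coloured by whether a gene of the list rose, fell or none passed the test, with the counts at the right. Lists with decreases lie at -0.382 for epidermal stress and -0.408 for interferon response, and skeletal muscle, with no gene past the test, has the lowest median.

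The same Mek1 allele was also present without the loss of Shp2, in Mek1gof skin, whose comparison with control skin shares no array with that of Double and Shp2lof skin. Both comparisons took the spread of each gene from all 16 arrays, so their calls are not fully independent. In Mek1gof skin 52 genes passed against control (0.508% of all), 35 higher and 17 lower. Read in Double minus Shp2lof, the 35 genes were all above 0, where 51.4% of all genes lay above 0. Of them 15 rose, against 0.43% of all genes, and their median was 0.683. Of the 17 lower genes 15 were below 0, and the median was -0.244. Among them 1 fell, which was Pyy, against 0.538% of all genes. The 15 that rose, listed whole after their values were seen, were Pmp2, Il13ra2, Tmem45b, Fa2h, Acox2, Clstn3, Elovl3, Panx3, Mgll, Pxmp4, Pank1, Acss2, Mvd, Spry3 and Acly. Of 16 genes higher in Mek1gof skin on slide 1, 14 were above 0 on slide 2, against 51.6% of all genes. Their median was 0.666, and 6 rose, against 0.801% of all. Of 97 genes higher in Mek1gof skin on slide 2, 68 were above 0 on slide 1, against 50% of all. Their median was 0.261, and 19 rose, against 1.48% of all. Of 12 genes lower in Mek1gof skin on slide 1, 7 were below 0 on slide 2, against 48.4% of all. Of these 2 fell, against 1.91% of all. Of 96 genes lower in Mek1gof skin on slide 2, 56 were below 0 on slide 1, against 50% of all. Of these 10 fell, against 1.36% of all, and 4 rose, against 1.48%. Over all genes the differences had a Pearson correlation of 0.327 and a Spearman correlation of 0.239, which describe genes and not replicates. With each difference taken from another slide the Pearson correlation was 0.0795 and 0.0192, against 0.28 and 0.325 with both from slide 1 or both from slide 2, so the likeness over all genes was found within slides and hardly across them. The skeletal muscle list had a median of -0.878 in Double minus Shp2lof and -0.652 in Mek1gof minus control. Xist in Mek1gof skin was at 9.29, 8.82, 5.02 and 5.77, divided by slide as in Double skin. The part of muscle or sex in the likeness was not tested.

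**Figure D4:**
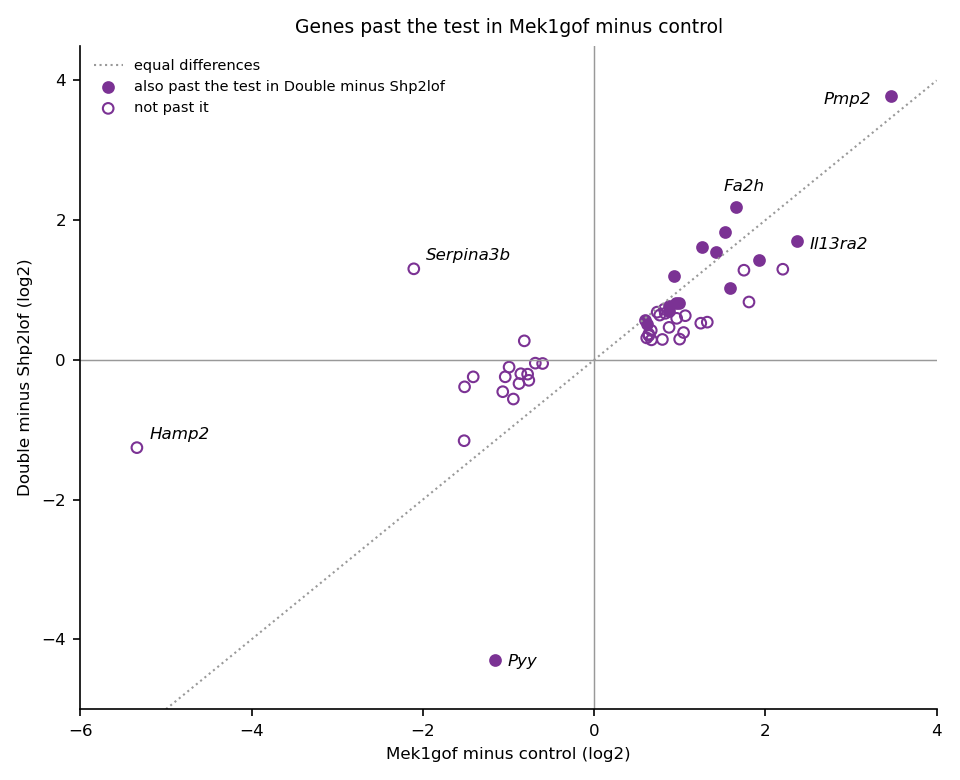
Double minus Shp2lof (y axis, log2) against Mek1gof minus control (x axis, log2) for the 52 genes past the test in Mek1gof minus control, filled where the gene also passed in Double minus Shp2lof, with a dotted line at equal differences. All 35 genes higher in Mek1gof lie above 0, Pyy lies far below the line, and Hamp2 and Serpina3b lie above it.

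Where Double skin stood relative to control skin was read gene by gene, since the differences of Double and of Shp2lof skin from control share control arrays, and Double minus Shp2lof shares arrays with both. Against control, 397 genes passed in Double skin (3.88%), 188 higher and 209 lower, and 261 in Shp2lof skin (2.55%), 154 higher and 107 lower. The number for Double skin was 136 without control 2, 150 without control 3, 264 without control 1, 181 without Double 2, 196 without Double 3 and 5 in a fit adjusted for skeletal muscle. Fcgr4 was 0.08 (adjusted p = 0.883) in Double minus control and 2.45 (adjusted p = 7.33e-06) in Shp2lof minus control, and Irf1 was -0.24 (adjusted p = 0.36) and 1.10 (adjusted p = 0.000247). Slc2a1 was -0.04 (adjusted p = 0.927) in Double skin and 1.30 (adjusted p = 0.000212) in Shp2lof skin. Epgn was 0.20 (adjusted p = 0.734) and 2.04 (adjusted p = 0.000356) in the same order. Chil1 and Sprr2g stayed above control in Double skin, at 1.38 (adjusted p = 0.00684) and 1.34 (adjusted p = 0.00351), with 2.45 (adjusted p = 2.58e-05) and 2.28 (adjusted p = 1.13e-05) in Shp2lof skin. Pyy in Double skin was below control, -1.16 (adjusted p = 0.0117), while in Shp2lof skin it was above it, 3.13 (adjusted p = 1.16e-06).

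Genes that rose divided otherwise. Pmp2 was 3.19 (adjusted p = 8.51e-06) in Double minus control and -0.59 (adjusted p = 0.327) in Shp2lof minus control, so Double skin exceeded both. Elovl3 likewise was 1.23 (adjusted p = 0.00341) and -0.32 (adjusted p = 0.438), and Fa2h 1.11 (adjusted p = 0.0112) and -1.07 (adjusted p = 0.0128). Aadacl4, in contrast, was 0.30 (adjusted p = 0.682) in Double skin and -2.18 (adjusted p = 0.00235) in Shp2lof skin, and Aldh3a1 -0.13 (adjusted p = 0.821) and -1.76 (adjusted p = 0.000861). Cyp2g1 stayed below control in Double skin, at -1.61 (adjusted p = 0.0177), with -3.21 (adjusted p = 5.34e-05) in Shp2lof skin. Cpz was -0.10 (adjusted p = 0.853) in Double skin and -1.27 (adjusted p = 0.0069) in Shp2lof skin.

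Several genes that differed strongly between Shp2lof and control skin did not pass between Double and Shp2lof skin. Krtap31-2, a keratin-associated protein of the hair shaft, was at 8.45, 9.27, 9.32 and 8.90 in Double skin, against 7.15, 7.50, 6.84 and 7.99 in Shp2lof skin (1.62, SE 0.415, adjusted p = 0.0711), and stood at -2.26 (adjusted p = 0.00741) in Double and -3.88 (adjusted p = 4.35e-05) in Shp2lof skin relative to control. Serpinb6e, a serpin, was at 8.24, 8.46, 6.41 and 6.14 in Double skin, against 7.28, 7.03, 7.09 and 7.26 in Shp2lof skin (0.15, SE 0.433, adjusted p = 0.933), above the Shp2lof arrays on slide 1 and below them on slide 2, and was -3.003 (adjusted p = 0.00203) and -3.15 (adjusted p = 0.000374) relative to control. Ces1d, a carboxylesterase, also differed in sign between the slides (0.81 on slide 1 and -0.59 on slide 2, adjusted p = 0.944). Among the genes highest in Double skin relative to control, the osteocalcin gene Bglap2 was 2.32 (adjusted p = 0.00242) in Double and 1.98 (adjusted p = 0.00401) in Shp2lof skin. S100a9 was 2.29 (adjusted p = 0.000763) and 1.93 (adjusted p = 0.00159), Krt90 2.26 (adjusted p = 0.00295) and 1.59 (adjusted p = 0.0185), and Slpi, a leukocyte protease inhibitor, 2.22 (adjusted p = 0.00647) and 1.73 (adjusted p = 0.0237). For these 4 the Double and Shp2lof arrays overlapped and Double minus Shp2lof lay between 0.34 and 0.67, none past the test.

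Genes chosen for their Shp2lof effect on one slide were then read on the other, so that choosing and reading shared no array. Of 63 genes higher in Shp2lof than in control skin on slide 1, 54 (85.7%) had Double minus Shp2lof below 0 on slide 2, where 48.4% of all genes did, and 33 fell there, against 1.91% of all genes lower on slide 2. Their median was -1.13, and their median difference of Double skin from control on slide 2 was 0.0539. Of 97 genes higher on slide 2, 78 (80.4%) were below 0 on slide 1 and 18 fell, against 1.36% of all. Their median was -0.432, and Double skin stood 0.53 above control there. For genes lower in Shp2lof skin the slides went the other way. Of 78 chosen on slide 2, 66 (84.6%) were above 0 on slide 1 and 23 rose, against 1.48% of all genes higher on slide 1, with a median of 0.584 and Double skin at 0.0226 relative to control. Of 45 chosen on slide 1, 23 (51.1%) were above 0 on slide 2, 6 rose, against 0.801% of all, and 2 fell, with a median of 0.00967 and Double skin at -0.783 relative to control. So the genes high in Shp2lof skin were near control in the Double samples of slide 2 and part of the way there in those of slide 1, and the genes low in Shp2lof skin were near control in the Double samples of slide 1 and not in those of slide 2. Each slide held 2 Double samples, and slide cannot be told apart from these samples or from their Xist and muscle levels. The mean skeletal muscle level of Double skin was 9.465 on slide 1 and 10.22 on slide 2, and that of the melanocyte list 7.892 and 9.331.

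**Figure D5:**
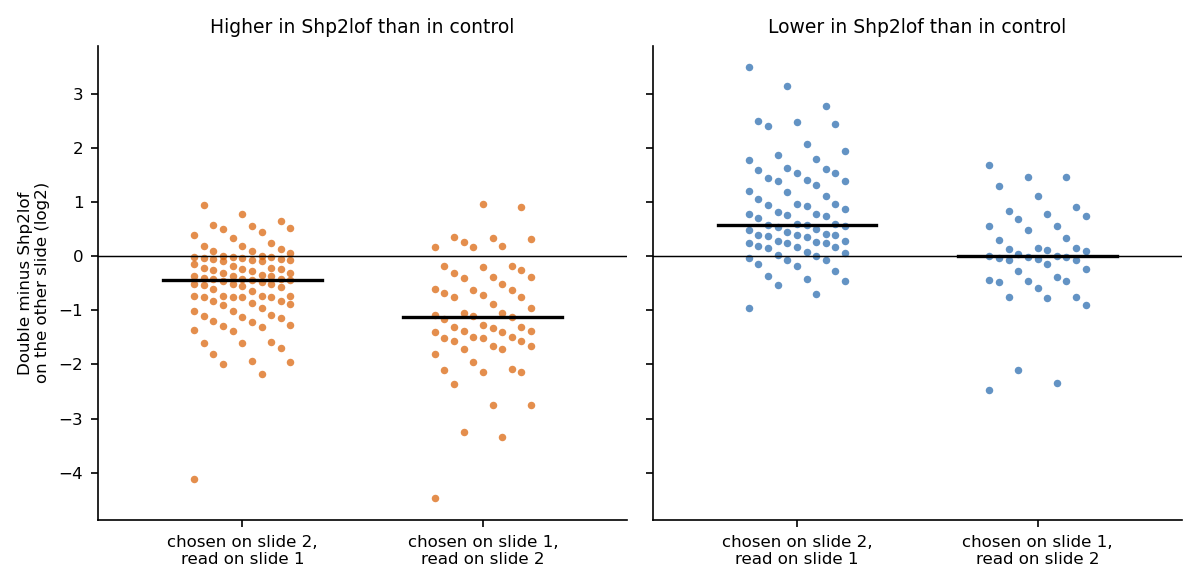
Double minus Shp2lof (y axis, log2) on one slide for genes past the test in Shp2lof minus control on the other slide, a point per gene and a bar at the median, for genes higher (left panel) and lower (right panel) in Shp2lof than in control skin. Medians are -0.432 and -1.13 in the left panel and 0.584 and 0.00967 in the right panel, in the order of the x axis.

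Whether the Mek1 allele acted differently where Shp2 was lost was tested as the difference between Double minus Shp2lof and Mek1gof minus control. In limma 9 genes passed (0.088% of all), 2 higher and 7 lower, and 734 had an unadjusted p below 0.05 (7.17%). Pyy had the smallest adjusted p, with a difference of -3.14 (SE 0.333, adjusted p = 0.000246), with -4.30 in Double minus Shp2lof and -1.15 (adjusted p = 0.0326) in Mek1gof minus control. Fcgr4 was -2.21 (SE 0.305, adjusted p = 0.00273), with -0.17 (adjusted p = 0.867) in Mek1gof minus control, Serpinb3a -1.80 (SE 0.249, adjusted p = 0.00273) and Foxp3 -1.62 (SE 0.224, adjusted p = 0.00273). Slc2a1 was -1.53 (SE 0.234, adjusted p = 0.00661), Tap2 -1.26 (SE 0.216, adjusted p = 0.0221) and Irf1 -1.25 (SE 0.2, adjusted p = 0.0101). None of these 6 passed in Mek1gof minus control. The Serpinb3a probe was above background on 1 Double, 1 Mek1gof and no control array, and that of Pyy on 1 Double and 1 Mek1gof array, so the size of their interaction is limited by the background. Hamp2, the iron regulator hepcidin 2, was 4.08 (SE 0.573, adjusted p = 0.00273): it was at 7.03, 5.81, 5.26 and 4.81 in Double skin, against 6.88, 6.80, 7.06 and 7.21 in Shp2lof skin (-1.26, SE 0.405, adjusted p = 0.158), and at 6.54, 5.28, 4.67 and 4.79 in Mek1gof skin and 10.60, 10.74, 10.17 and 11.12 in control skin. Hamp2 was thus low in all 3 mutant groups and high in control skin alone. Its values on Mek1gof 3, Mek1gof 4 and Double 4 lay near background, where the Mmp12 probe, undetected in Mek1gof skin, had 4.60 to 4.79. From its Shp2lof level Hamp2 could fall less far than from its control level, so the size of its interaction is also limited by the background. Serpina3b, a serpin, was 3.41 (SE 0.635, adjusted p = 0.0499), with 1.30 in Double minus Shp2lof, 2.51 on slide 1 and 0.10 on slide 2, and -2.11 (adjusted p = 0.0408) in Mek1gof minus control. Without Double 4, Shp2lof 4 and Mek1gof 2, 5 genes passed, and the number was 19 without Double 1 and 16 without Double 2.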

How the data were processed

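Dorsal skin of 15-day-old mice was profiled on 16 Illumina bead arrays, 4 in each of 4 groups. The deposited signal intensities were made with GenomeStudio, per the submitters' processing notes, which give no version, and the detection p-value of each probe was deposited beside them. The 2 deposited tables differed by at most 0.05. Signals were background-corrected from the detection p-values, quantile-normalized and put on the log2 scale with neqc (offset 16) in limma 3.58.1 under R 4.3.3, so every log2 value was computed here from the deposited intensities. The fit used the 14631 of 25697 probes (56.9%) that 4 or more arrays detected at p below 0.05. One gene symbol was given for 23978 probes, several for none and no symbol for 1719, and Entrez numbers led to current symbols for 23962. For the 2581 genes with several kept probes, the probe of highest mean was used. Probe brightness depends on the probe, so levels were not compared between genes, and the number of arrays limits the precision.

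A mean per group was fitted over all 16 arrays with limma's lmFit and eBayes (12 residual and 5.74 prior degrees of freedom), and p was adjusted by Benjamini-Hochberg over 10232 genes, with a threshold of 0.05. Every p in the text is from limma. In simulated data for Double minus Shp2lof over 10232 genes, the fit recovered 20.8%, 85.9% and 100% of genes changed by 0.5, 1 and 2 log2 units, and 10 of 143 calls were false (6.99%). The simulated noise was normal and independent between genes and arrays, without differences of slide, sex or muscle. These shares therefore do not give the false calls among the 99 genes. "At least" folds compare the bright group's mean with the lowest detected signal or the dim probe's own, whichever was higher. The genes and gene lists were chosen with earlier results of these data known. Named genes are the engineered genes and the driver's, the 15 largest non-overlapping increases and decreases, up to 4 called members of each list, the extremes of the other comparisons, and, for lists without a call, those of smallest p. Other genes, including list members that did not pass, Tap2, Ubd, Irgm2, Oas2, H2-Q7, Bst2, Gap43, Spry3, Mgll, Pxmp4 and interferon genes beyond the first 4, were chosen after their values were seen. Alternatives covered normalization, filters, probe choice, slide, replicate number and single arrays. Adjustments for Xist, Eif2s3y and skeletal muscle, and the fit without Double 4, Shp2lof 4 and Mek1gof 2, were added after the data were seen. The 866 kept probes without a symbol were not named, and 9 of them passed, 3 higher and 6 lower. Figures were drawn with Python 3.11.15 and matplotlib 3.10.9.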

Additional observations from a re-analysis of the deposited data

Results flagged for a closer look

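For 9 genes the effect of the Mek1 allele differed by the interaction test between skin without and with Shp2. The difference (Double minus Shp2lof, less Mek1gof minus control, log2) was -3.144 for Pyy, -2.206 for Fcgr4, -1.804 for Serpinb3a and -1.622 for Foxp3. It was -1.534 for Slc2a1, -1.257 for Tap2 and -1.254 for Irf1. The probes of Serpinb3a and Pyy were at or near background on most arrays of Mek1gof skin, where a further decrease could not be measured, so the values of these 2 genes are set in part by the background. The difference was positive for Hamp2, at 4.084, and for Serpina3b, at 3.41. Hamp2 was near background on some Mek1gof and Double arrays, so the size of its value is also limited by the background.

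Single arrays stood apart from the other 3 of their group in 10 of 248 groups examined (4.03%), where chance alone flags about 1 in 20 groups. In Double skin this was Mmp12 on Double 2, at 5.785 where the other arrays had 4.838 to 4.96. In Shp2lof skin it was Defb4 on Shp2lof 2, at 7.493 against 6.873 to 6.903. In Mek1gof skin Trappc12 was at 6.375 on Mek1gof 4 (4.606 to 4.719 on the others), and Elf3 at 5.602 on the same array (4.638 to 4.739). Clec7a was at 6.235 on Mek1gof 3 (5.933 to 5.962), Acss2 at 10.26 on Mek1gof 3 (9.888 to 9.928) and Acly at 12.75 on Mek1gof 1 (12.91 to 12.93). In control skin Defb4 was at 5.455 on control 2 (4.798 to 4.899), Fa2h at 11.18 on control 3 (10.99 to 11.01) and Eln at 11.29 on control 4 (11.04 to 11.07).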

How the results depend on the processing

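The 99 genes of Double minus Shp2lof numbered 178 on unnormalized signals, with 14 higher and 164 lower against 44 and 55, 150 with array weights, 158 with the slide as a block, 290 on slide 1 alone, 277 on slide 2 alone and 39 in the fit adjusted for skeletal muscle. Leaving out 1 array gave 56 (without Shp2lof 3) to 135 genes. Double minus control, with 397 genes, gave 251 on unnormalized signals, 257 with only the groups compared, 652 on slide 2 alone and 5 adjusted for skeletal muscle, and 136 to 492 with 1 array left out. The interaction, with 9 genes, gave 17 with array weights, 17 with the slide as a block, 36 on slide 2 alone, 14 adjusted for Xist, 5 without the 3 arrays of atypical sex-linked levels, and 7 to 19 with 1 array left out, the highest without Double 1. With the replicate number as a replicate block, 131, 464 and 10 genes passed, and 93 of the 131 were among the 99. A check of pairing by replicate number gave correlations between -0.0523 and 0.0762 for the same number, and for each number another one matched best. These are not correlations of the levels themselves, which were at least 0.9621 between arrays. The labels do not say whether a number marks a shared litter or day, and this check cannot tell. Double minus Shp2lof of Ptpn11, 0.12 in the fit reported, was -0.0298 on unnormalized signals. Double minus Shp2lof of Map2k1, reported as -0.10, was 0.09199 adjusted for Eif2s3y and between -0.2198 and 0.01104 with 1 array left out, and Egr2, reported as -0.24, was at 0.001321 on slide 1 alone. The cause of these shifts was not tested. Of 46 named genes past the test in Double minus Shp2lof none changed sign, and 12 passed under every alternative in which they were tested: Pyy, Hbb-b2, Fcgr4, Mmp12, Epgn, Elf3, Serpinb3a, Pmp2, Fa2h, Elovl3, Pank1 and Slc2a1. For genes without overlap, leaving out arrays could not change the sign, and the slide block could not do so for any gene. The adjustment for skeletal muscle lost 24 of the 46, leaving out Shp2lof 3 lost 15, and the slide or replicate block lost none. Awat2 and Egln3 were lost most often, under 16 of 26 alternatives each. Probes near background give only bounds on a fold. None of the alternatives addressed the mixed strain of the mice, which also applies to Hbb-b2.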
